A study of Mus musculus with 8 samples.

Results

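The TOX, NR4A, EGR and NFAT factors are transcription factors that act behind the T cell receptor (TCR). The 10 genes described here, *Tox*, *Tox2*, *Nr4a1*, *Nr4a2*, *Nr4a3*, *Egr1*, *Egr2*, *Egr3*, *Nfatc1* and *Nfatc2*, were taken by symbol from a bulk RNA-seq table of 22520 genes and assembled transcripts, and each of the 10 was found. Mouse CD8+ T cells from the spleen were stimulated in culture with antibodies to CD3 and CD28 and with interleukin-2, and received either DADA (diisopropylamine dichloroacetate, an inhibitor of pyruvate dehydrogenase kinases) at 40 µM or an equal volume of the solvent DMSO (Ctrl) from day 3 until harvest on day 6. There were 4 Ctrl and 4 DADA libraries. The study describes this culture with cells of wild-type mice, and the labels name no deletion or transgene in either group, although the genotype field of the labels reads control for Ctrl and model for DADA. The donors' strain and age for these libraries are not given in the sources used here. The sources used here do not say whether the 4 replicates came from separate mice, so p-values measure only the spread between these cultures, which may be technical.

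As background, persistent TCR signaling raises calcium, and the phosphatase calcineurin then lets NFAT proteins enter the nucleus. NFAT, in part without its partner AP-1, induces the NR4A nuclear receptors and TOX, which are known for driving exhaustion and inhibitory receptor expression in CD8+ T cells. EGR factors are immediate early genes of the MAPK and calcium pathways, and EGR2 and EGR3 are known as restraints on TCR signaling in anergy.

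The values are FPKM, fragment counts that the authors adjusted for gene length and library depth, so that levels can be compared between genes. Differences were tested as log2(FPKM + 1) with limma over 10666 genes (a minimum of 1 FPKM in 4 or more libraries), with Benjamini-Hochberg adjustment over them, and a gene was called at an adjusted p-value under 0.05. On this scale the change of low genes is understated. Of the 10 factors, 9 passed the filter and *Tox2* did not. *Nr4a2*, *Egr1*, *Egr2*, *Egr3*, *Nfatc1* and *Nfatc2* were called higher with DADA, and *Tox*, *Nr4a1* and *Nr4a3* lower. The study had already named *Tox* and *Nr4a1* as decreased in its bulk RNA-seq, so their calls are not independent of its report. Most genes differed between these groups: 66.2% of all genes tested were called, 30.9% higher and 35.3% lower, and for 60.6% the 4 values of one group did not overlap those of the other. The balance of directions turned with the scaling of the libraries: 3296 genes were called higher and 3768 lower as deposited, against 3771 and 3288 with median-ratio scaling and 3604 and 3380 after rescaling to the same total. With so many genes called, nothing particular to the factors or to the lists below is read from their number of calls, and the description rests on the direction and size of each change.

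Facts of the whole series bear on all of these values. The libraries held an estimated 13690000 to 16370000 mapped fragments with Ctrl and 15350000 to 18840000 with DADA, read from the steps between the lowest FPKM values. These depths are rough. Only 36.5% to 44.4% of low values lay within 0.1 of a whole fragment, where this tolerance alone gives 20%. The CD8 T cell markers *Cd3d*, *Cd3e*, *Cd3g*, *Cd8a* and *Cd8b1* were present in every library, with a summed level of 674 to 680 FPKM with Ctrl and 776 to 805 FPKM with DADA. Of 7 myeloid markers, 4 were at 0 in all libraries, and their sum reached at most 0.188 FPKM. Of 5 B cell markers, *Pax5* was at 0 in all libraries and *Cd79b* alone passed the filter, with a list sum of 2.59 to 3.54 FPKM with Ctrl and 2.36 to 3.09 FPKM with DADA. The erythroid sum was at most 0.369 FPKM, with 1 of 5 markers at 0 throughout. Among CD4 T cell and NK cell markers, none of 4 each was at 0 throughout. Only 1 of each list passed the filter, *Zbtb7b* and *Eomes*. The list sums were 16.3 to 17.4 and 13.3 to 14.2 FPKM with Ctrl, and 15.3 to 15.8 and 10.1 to 11.2 FPKM with DADA. *Zbtb7b* and *Eomes* made up nearly all of these sums. *Cd4*, *Foxp3* and *Cd40lg* reached at most 0.411, 0.268 and 0.279 FPKM, and *Ncr1*, *Klrb1c* and *Klra8* at most 0.136, 0.249 and 0.0962 FPKM. *Foxp3* and *Klrb1c* lay higher in all DADA libraries, and *Cd40lg* lay lower. The lower sums with DADA thus follow *Zbtb7b* and *Eomes* and not the lists as a whole. The part of these markers in the results below was not tested, and in bulk RNA fewer cells of a type and less RNA per cell cannot be told apart.

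The 3 NR4A genes are shown first with the sequence in front of their start sites, because they changed unequally although they belong to one family. The sequences are the 250 bases before the annotated start, 5′ to 3′ on the strand of the gene, from RefSeq on GRCm38.p6. Windows were given for 6 of the 10 factors. Capitals mark TGACG on either strand, which reads CGTCA on the other strand and is the half-site of the cAMP response element.
Nr4a1 (chr15:101266596-101266845, plus strand): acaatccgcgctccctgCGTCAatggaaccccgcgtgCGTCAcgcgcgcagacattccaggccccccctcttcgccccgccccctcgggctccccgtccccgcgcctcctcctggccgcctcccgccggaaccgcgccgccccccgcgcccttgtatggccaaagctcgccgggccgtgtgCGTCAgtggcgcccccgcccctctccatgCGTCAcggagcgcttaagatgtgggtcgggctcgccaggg
Nr4a2 (chr2:57124004-57124253, minus strand): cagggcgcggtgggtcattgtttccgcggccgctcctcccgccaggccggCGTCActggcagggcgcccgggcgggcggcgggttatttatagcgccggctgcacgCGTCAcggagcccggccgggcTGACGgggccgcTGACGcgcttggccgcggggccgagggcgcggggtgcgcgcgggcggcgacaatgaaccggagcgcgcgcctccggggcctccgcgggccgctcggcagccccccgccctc
Nr4a3 (chr4:48045055-48045304, plus strand): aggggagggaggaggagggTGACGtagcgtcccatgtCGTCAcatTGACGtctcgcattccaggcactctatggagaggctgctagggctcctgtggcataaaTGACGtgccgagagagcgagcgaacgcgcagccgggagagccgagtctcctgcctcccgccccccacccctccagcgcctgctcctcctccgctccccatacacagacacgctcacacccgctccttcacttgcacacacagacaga
Each of the 3 windows held 4 matches to TGACG, counting both strands, whereas 17.7% of 32817 windows of this length held at least 1 and 0.137% held at least 4. In front of *Nr4a1* the 4 matches began 233, 213, 69 and 40 bases before the start, in front of *Nr4a2* 200, 144, 123 and 111 bases before it, and in front of *Nr4a3* 231, 213, 205 and 147 bases before it. The full palindrome TGACGTCA, held by 1.55% of windows, was in none of the 3. The EGR motif GCGNGGGCG (4.7% of windows) matched once in front of *Nr4a1* and once in front of *Nr4a2*. The MEF2 motif (2.92% of windows) and the NFAT core GGAAA (55.6% of windows) each matched once in front of *Nr4a2* only of the 3. Neither TGANTCA (6.75%) nor AAAGGTCA (1.34%) was found in them. Of the 5 windows of *Egr2*, which overlap in part, 4 held a CArG box, the SRF motif present in 1.47% of windows. The overlapping windows that begin at bases 67537619, 67537620 and 67537680 of chromosome 10 share one and the same box. The window that begins at base 67537316 holds a different one, so the windows with a box are not independent. Both windows of *Nfatc2* held GGAAA, with 3 matches in one and 1 in the other. These matches are descriptions of the sequence and not of bound sites. *Nr4a2*, which was called higher, and *Nr4a1* and *Nr4a3*, which were called lower, had the same number of TGACG matches.

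*Nr4a1* (ENSMUSG00000023034), which encodes the nuclear receptor NUR77, an immediate early reporter of TCR signal strength, was the most abundant of the 10 factors in both groups. It was at 126, 124, 123 and 126 FPKM in Ctrl replicates 1 to 4 and at 57.0, 57.4, 52.5 and 56.3 FPKM in DADA replicates 1 to 4. The groups lay far apart, with a gap many times the spread within either. The mean fell from 125 ± 1.61 to 55.8 ± 2.27 FPKM (SD, n = 4 libraries), a log2 fold change of -1.15 (95% confidence interval -1.22 to -1.08, limma, adjusted p = 5.70e-10). Only 32 of the 10666 genes tested had a lower log2 fold change.

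*Nr4a2* (ENSMUSG00000026826), which encodes the related orphan receptor NURR1, moved the other way. Its Ctrl libraries had 13.3, 13.9, 13.5 and 13.2 FPKM and its DADA libraries 20.6, 20.3, 20.3 and 20.7 FPKM. Replicates were tight, with a coefficient of variation of 2.25% with Ctrl and 0.843% with DADA. The log2 fold change was 0.57 (95% confidence interval 0.50 to 0.63, limma, adjusted p = 6.76e-08), and the mean was 1.52 times that of Ctrl.

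*Nr4a3* (ENSMUSG00000028341), which encodes NOR1, showed the smallest change of the family. It had 39.9, 38.6, 40.3 and 39.0 FPKM with Ctrl and 32.5, 33.6, 32.6 and 33.2 FPKM with DADA. All DADA libraries were lower than all Ctrl libraries, by a modest step. The mean fell by 16.4%, with a log2 fold change of -0.25 (95% confidence interval -0.31 to -0.20, limma, adjusted p = 9.87e-06).

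Within each library, the NR4A genes were compared with one another, so that the scaling of the library nearly cancels. *Nr4a2* relative to *Nr4a1* was 1.71 log2 units higher with DADA than with Ctrl, which is 3.28-fold on this scale. *Nr4a3* relative to *Nr4a1* was 0.90 log2 units higher, and *Nr4a3* relative to *Nr4a2* was 0.82 log2 units lower (-0.82). For each of the 3 pairs the groups did not overlap (two-sided exact permutation test over 70 assignments, p = 0.0286, the smallest that 4 against 4 libraries can give; adjusted p = 0.0327 over 8 pairs in the 4 families). The summed NR4A level was 178 ± 1.41 FPKM with Ctrl and 109 ± 2.61 FPKM with DADA. Of this sum, *Nr4a1* made up 70.2% ± 0.469 with Ctrl and 51.1% ± 0.908 with DADA, and *Nr4a2* 7.59% ± 0.225 and 18.7% ± 0.438 (SD, n = 4 libraries). The share of *Nr4a3* was 22.2% ± 0.421 and 30.2% ± 0.569. Sums and shares are given as a description, without a test.

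**Figure D1:**
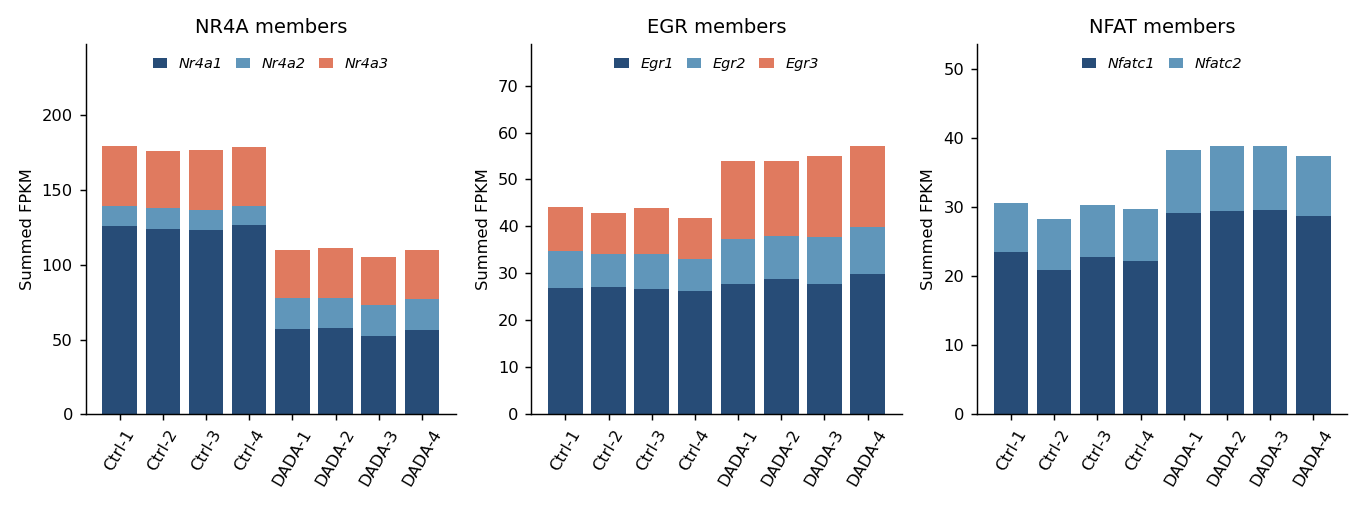
Stacked bars give the FPKM of each family member in each of the 8 libraries, for NR4A, EGR and NFAT (y axis: summed FPKM, starting at 0). The NR4A sum was 176 to 179 FPKM with Ctrl and 105 to 111 FPKM with DADA. The sums of the 3 EGR and 2 NFAT genes among the factors were higher in all 4 DADA libraries.

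*Tox* (ENSMUSG00000041272), the HMG-box factor required for the exhaustion program, was low in these cells. Ctrl libraries had 3.26, 3.03, 2.98 and 2.85 FPKM, and DADA libraries 1.88, 1.55, 1.46 and 1.98 FPKM. DADA libraries varied more among themselves, with a coefficient of variation of 14.7% against 5.57% with Ctrl, yet the groups did not overlap. The mean fell by 43.3%, and the log2 fold change was -0.57 (95% confidence interval -0.74 to -0.41, limma, adjusted p = 6.66e-05). An antisense gene, *Gm11802*, overlaps exons of *Tox* in GENCODE M21 and is not a row of the table, and without known strand use its reads could not be told apart from those of *Tox*. At this level the pseudocount weighs on the value, which was -0.79 with a pseudocount of 0.1.

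*Tox2* (ENSMUSG00000074607), a paralog that acts with TOX in exhausted T cells, was hardly detected. It was at 0.0234 and 0.0253 FPKM in Ctrl replicates 1 and 3, at 0.0543 and 0.0413 FPKM in DADA replicates 1 and 3, and listed at 0 in the other 4 libraries. In a fit without the filter on low values, where 48.7% of 16167 genes were called, its log2 fold change was 0.02 (limma, adjusted p = 0.571), and no difference was detectable at this level. The within-library difference of *Tox2* and *Tox* was 0.59 log2 units higher with DADA (exact permutation test, p = 0.0286, adjusted p = 0.0327 over 8 pairs). With *Tox2* near 0 in both groups, this value is by arithmetic almost that of *Tox* with its sign turned.

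The 3 EGR genes were all higher with DADA, by unequal amounts. *Egr3* (ENSMUSG00000033730), an NFAT-induced zinc finger factor, changed the most, with 9.51, 8.68, 9.78 and 8.63 FPKM with Ctrl and 16.7, 16.0, 17.1 and 17.2 FPKM with DADA. Its groups were separated by several FPKM. The mean was 1.83 times that of Ctrl, and the log2 fold change was 0.81 (95% confidence interval 0.70 to 0.91, limma, adjusted p = 1.82e-07). Of the genes tested, 549 had a higher log2 fold change.

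*Egr2* (ENSMUSG00000037868), its close relative in anergy and in the exhausted state, was lower in level and changed less. It had 7.76, 7.08, 7.38 and 6.88 FPKM with Ctrl and 9.52, 9.13, 10.1 and 10.0 FPKM with DADA, and the groups did not overlap. Its log2 fold change was 0.37 (95% confidence interval 0.26 to 0.48, limma, adjusted p = 6.98e-05), and the mean rose by 33.2%.

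*Egr1* (ENSMUSG00000038418), the immediate early member induced by MAPK signaling, was the most abundant EGR gene and differed least. It had 26.9, 27.1, 26.7 and 26.3 FPKM with Ctrl and 27.7, 28.9, 27.8 and 29.9 FPKM with DADA. The groups did not overlap, but the highest Ctrl library, at 27.1 FPKM, lay close below the lowest DADA library, at 27.7 FPKM. Its log2 fold change of 0.09 (95% confidence interval 0.02 to 0.16) was called (limma, adjusted p = 0.0246), and 3 libraries carried the call: it was lost without Ctrl replicate 4 (adjusted p = 0.0606), DADA replicate 2 (0.0574) or DADA replicate 4 (0.0705), with log2 fold changes of 0.08, 0.08 and 0.07.

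The pairs of EGR genes differed as well. Relative to *Egr1*, *Egr3* was 0.72 log2 units higher with DADA than with Ctrl and *Egr2* 0.28 log2 units higher, and relative to *Egr2*, *Egr3* was 0.44 log2 units higher (exact permutation test, p = 0.0286 for each, adjusted p = 0.0327 over 8 pairs). The share of *Egr3* in the summed EGR level was 21.2% ± 0.905 with Ctrl and 30.5% ± 0.742 with DADA, and that of *Egr1* 62.0% ± 1.25 and 51.9% ± 1.31 (SD, n = 4 libraries). The share of *Egr2* overlapped between the groups, at 16.8% ± 0.509 and 17.6% ± 0.598. The EGR sum was 43.2 ± 1.10 FPKM with Ctrl and 55.0 ± 1.48 FPKM with DADA.

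**Figure D2:**
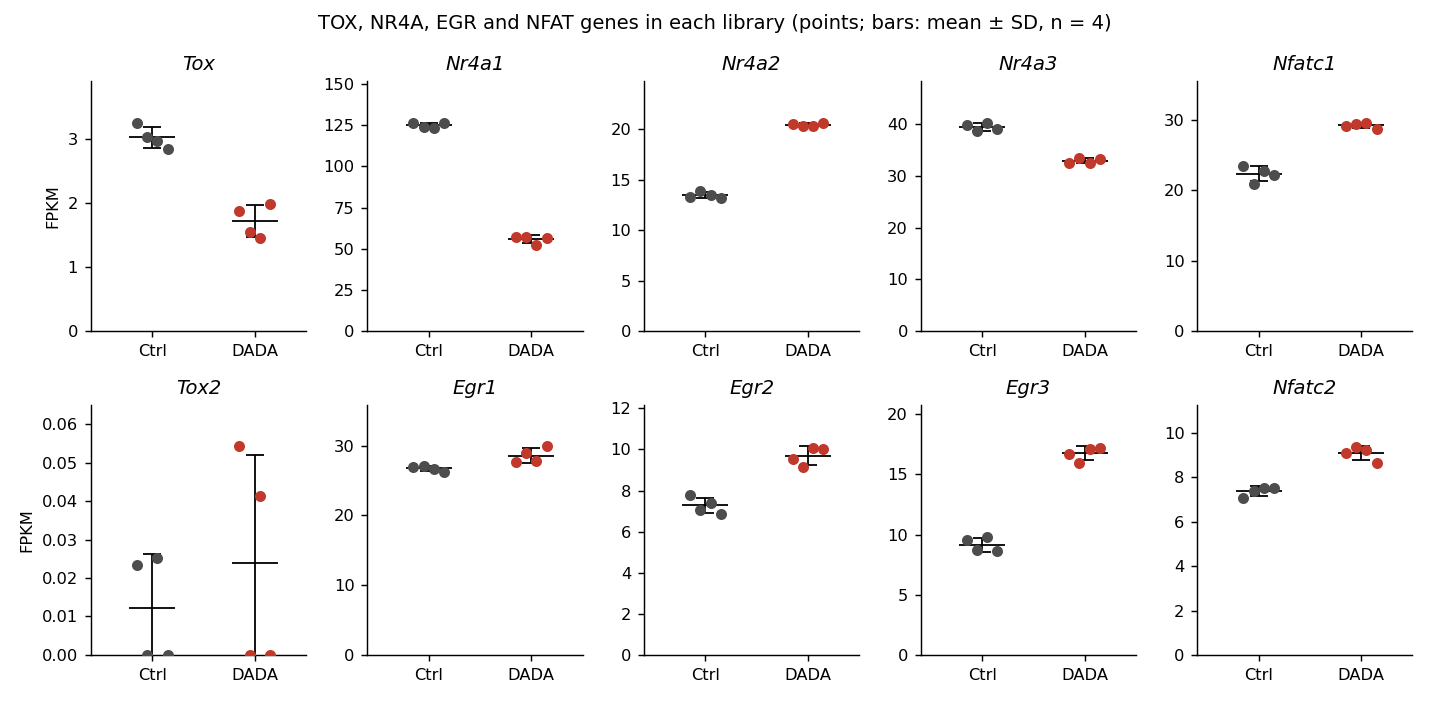
Each panel plots 1 gene, with FPKM on the y axis from 0, a point for each library and bars for the mean ± SD of 4 libraries. Nr4a1, Nr4a3 and Tox lay lower in all 4 DADA libraries, Nr4a2, the EGR genes and the NFAT genes lay higher, and Tox2 stayed under 0.06 FPKM with 4 libraries at 0.

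Both NFAT genes among the factors rose, whereas *Nfatc3*, which is not among them and is given below, fell. *Nfatc1* (ENSMUSG00000033016), whose product is induced by its own pathway in activated T cells, had 23.5, 20.9, 22.8 and 22.2 FPKM with Ctrl and 29.1, 29.5, 29.6 and 28.7 FPKM with DADA. Ctrl libraries spread over a wider range than DADA libraries, and the groups did not overlap. The mean rose by 30.8%, with a log2 fold change of 0.37 (95% confidence interval 0.29 to 0.45, limma, adjusted p = 7.20e-06). *Nfatc2* (ENSMUSG00000027544), which encodes NFAT1, the form present before activation, had 7.07, 7.39, 7.53 and 7.52 FPKM with Ctrl and 9.09, 9.35, 9.24 and 8.64 FPKM with DADA. The log2 fold change was 0.27 (95% confidence interval 0.18 to 0.35, limma, adjusted p = 1.77e-04). The changes of both genes were not told apart: *Nfatc2* relative to *Nfatc1* lay between -1.60 and -1.39 log2 units with Ctrl and between -1.62 and -1.56 with DADA (exact permutation test, p = 0.114, adjusted p = 0.114 over 8 pairs). Their sum was 29.7 ± 0.989 FPKM with Ctrl and 38.3 ± 0.694 FPKM with DADA, of which *Nfatc1* was 75.1% ± 1.24 and 76.3% ± 0.411.

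**Figure D3:**
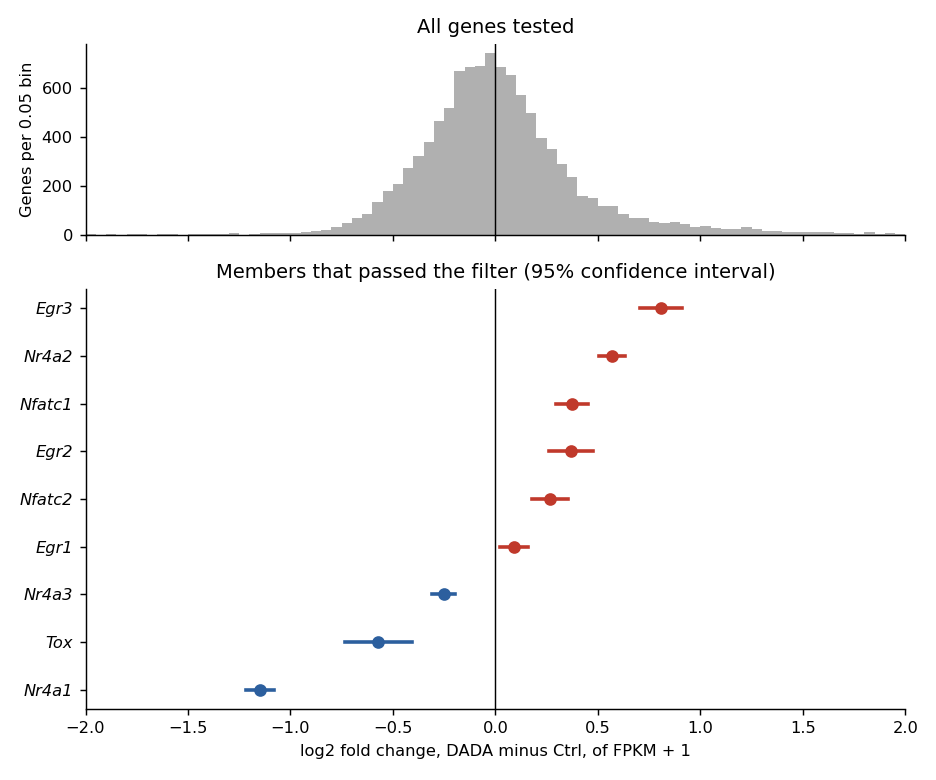
The upper panel is a histogram of the log2 fold change (DADA minus Ctrl, of FPKM + 1) of all 10666 genes tested, of which 91 lie beyond the plotted range of 2 log2 units to either side, and the lower panel gives the 9 factors that passed the filter with 95% confidence intervals (points and lines). The factors ran from -1.15 for Nr4a1 to 0.81 for Egr3, and Egr1 lay nearest to 0.

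The order of levels among the factors shifted in part. With Ctrl it ran *Nr4a1*, *Nr4a3*, *Egr1*, *Nfatc1*, *Nr4a2*, *Egr3*, *Nfatc2*, *Egr2*, *Tox* and *Tox2*, from 125 to 0.0122 FPKM. *Nfatc2* and *Egr2* overlapped, and all other neighbours in this order were apart in all 4 libraries. With DADA the order ran *Nr4a1*, *Nr4a3*, *Nfatc1*, *Egr1*, *Nr4a2*, *Egr3*, *Egr2*, *Nfatc2*, *Tox* and *Tox2*, where *Nfatc1* and *Egr1* overlapped, as did *Egr2* and *Nfatc2*. *Nr4a1* remained the highest, but its lead over *Nr4a3* narrowed from 125 against 39.4 FPKM to 55.8 against 33.0 FPKM.

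Other genes of the pathway were read from lists chosen for their known link to these factors. Earlier results of these data were known when the lists were chosen. The counts and medians of all the lists are therefore not independent evidence of a direction. Among 8 relatives and EGR corepressors, 5 passed the filter, of which 2 were called higher and 1 lower, with a median log2 fold change of 0.09 against -0.02 over all genes tested. The share called was 60%, near the 66.2% of all genes. *Tox4*, a ubiquitous TOX relative, rose from 24.8 ± 0.744 to 27.8 ± 0.185 FPKM (log2 fold change 0.16, limma, adjusted p = 5.52e-04). *Nfatc3*, another calcineurin-regulated NFAT gene, fell from 31.6 ± 1.27 to 28.1 ± 1.24 FPKM (log2 fold change -0.16, limma, adjusted p = 0.00420), opposite to *Nfatc1* and *Nfatc2*. *Nab2*, a corepressor bound by EGR proteins, had overlapping groups, 44.6 to 51.6 FPKM with Ctrl and 49.2 to 54.2 FPKM with DADA (log2 fold change 0.12, limma, adjusted p = 0.0400), and its call was lost without the filter on low values (adjusted p = 0.0679) and without Ctrl replicate 2, 3 or 4 or DADA replicate 1, 2 or 4, with log2 fold changes of 0.10, 0.12, 0.11, 0.10, 0.13 and 0.13.

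Of 29 calcineurin and calcium signaling genes, 27 passed the filter, and 10 were called higher and 7 lower, a share of 63.0% as deposited, near the 66.2% of all genes. The count called higher was 13 with median-ratio scaling and 11 after rescaling to the same total, with 7 lower under both. Without Ctrl replicate 4, 9 were called higher and 9 lower. The median log2 fold change was 0.04, and 0.09 with median-ratio scaling and 0.08 after rescaling. *Homer3*, a scaffold that competes with calcineurin for NFAT, was at 0.898 to 1.06 FPKM with Ctrl and 1.81 to 2.31 FPKM with DADA (log2 fold change 0.61, limma, adjusted p = 2.21e-05), and its log2 fold change was 0.98 with a pseudocount of 0.1. Most Ctrl values of *Homer3* lay under 1 FPKM, so it passed the filter only by its DADA libraries, where it was high. *Itpr1*, an inositol trisphosphate receptor that releases stored calcium, rose from 12.9 ± 0.672 to 16.9 ± 0.997 FPKM (log2 fold change 0.37). The calcium sensor *Stim2* fell from 21.2 ± 1.00 to 15.8 ± 0.600 FPKM (log2 fold change -0.41, limma, adjusted p = 1.25e-05). Chosen after their values were seen, the calcineurin subunits also differed: *Ppp3cc* (0.24) and *Ppp3ca* (0.23) were called higher and the regulatory *Ppp3r1* lower (-0.22), while *Ppp3cb* was not called (0.03, limma, adjusted p = 0.457). *Rcan1*, a calcineurin inhibitor induced by NFAT and likewise chosen after its values were seen, was at 3.33 to 4.11 FPKM with Ctrl and 4.47 to 5.03 FPKM with DADA (log2 fold change 0.32, limma, adjusted p = 0.00106).

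Exhaustion genes linked to TOX, NR4A or NFAT moved in both directions. Of 16, 15 passed the filter, and 8 were called higher and 7 lower, where 30.9% of all genes were called higher and 35.3% lower. The median log2 fold change was 0.21, against -0.02 over all genes. Those lower were *Pdcd1*, *Havcr2*, *Lag3*, *Tigit*, *Ctla4*, *Entpd1* and *Tnfsf11*, of which the first 5 are inhibitory receptors. *Lag3* and *Ctla4* had the largest decreases of the list, from 169 ± 5.52 to 29.6 ± 0.584 FPKM (log2 fold change -2.47) and from 887 ± 10.0 to 242 ± 5.27 FPKM (-1.87, limma, adjusted p = 3.42e-12 for each). Those higher were *Cd160*, *Tnfrsf9*, *Batf*, *Irf4*, *Ikzf2*, *Bhlhe40*, *Prdm1* and *Cd200*, of which *Batf*, *Irf4*, *Ikzf2*, *Bhlhe40* and *Prdm1* encode transcription factors and *Cd160* encodes another inhibitory receptor. *Prdm1*, which encodes BLIMP1, was at 0.587 to 0.773 FPKM with Ctrl and 6.64 to 8.58 FPKM with DADA (log2 fold change 2.36, limma, adjusted p = 2.18e-09), and *Bhlhe40* rose from 203 ± 1.75 to 387 ± 5.24 FPKM (0.92). *Prdm1* passed the filter through its DADA libraries alone. It thus entered the test and the count of 8 only through the group where it was high. Genes of this list were among those the study picked from these same libraries, so the list is not independent evidence of a direction.

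Of 12 anergy genes linked to EGR and NFAT, 11 passed the filter, and 8 were called higher and 1 lower, where 30.9% of all genes were called higher and 35.3% lower. The median log2 fold change was 0.49, against -0.02 over all genes. *Ndrg1*, an EGR2-linked anergy factor that is also known as a hypoxia-responsive gene, rose from 21.9 ± 0.899 to 122 ± 1.12 FPKM (log2 fold change 2.42, limma, adjusted p = 4.07e-12). *Sema7a*, a membrane semaphorin, rose from 9.03 ± 0.0967 to 29.7 ± 1.30 FPKM (1.61), whereas *Crtam*, an adhesion receptor of activated T cells, fell from 26.3 ± 1.01 to 19.3 ± 0.156 FPKM (-0.43). Of 16 early TCR response genes outside the factors, 15 passed the filter. Of these, 11 were called higher and 2 lower, where 30.9% of all genes were called higher and 35.3% lower. Their median log2 fold change was 0.46, against -0.02 over all genes. *Il2*, named here after its values were seen, was called higher but passed the filter through its DADA libraries alone. It was at 0.480 to 0.623 FPKM with Ctrl and 1.23 to 2.03 FPKM with DADA. *Ier3* rose from 11.5 ± 0.706 to 68.3 ± 2.81 FPKM (log2 fold change 2.47, limma, adjusted p = 5.44e-11). *Jun*, an AP-1 subunit, was at 6.65 to 7.33 FPKM with Ctrl and 19.5 to 20.9 FPKM with DADA (1.40, limma, adjusted p = 1.06e-09). *Ier2* fell from 62.6 ± 2.90 to 54.5 ± 3.53 FPKM (-0.20, limma, adjusted p = 0.00489). *Srf*, which encodes the factor that binds the CArG box, was at 18.7 to 20.9 FPKM with Ctrl and 17.1 to 19.8 FPKM with DADA (-0.15, limma, adjusted p = 0.0233), and its call was lost under both other scalings and without Ctrl replicate 1, 2 or 3 or DADA replicate 2, 3 or 4, with log2 fold changes between -0.14 and -0.11 in these settings. *Nr4a1* fell in the same libraries in which *Egr3*, *Jun* and *Ier3* rose, and *Nr4a3* (-0.25) and *Ier2* (-0.20) fell in them as well.

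**Figure D4:**
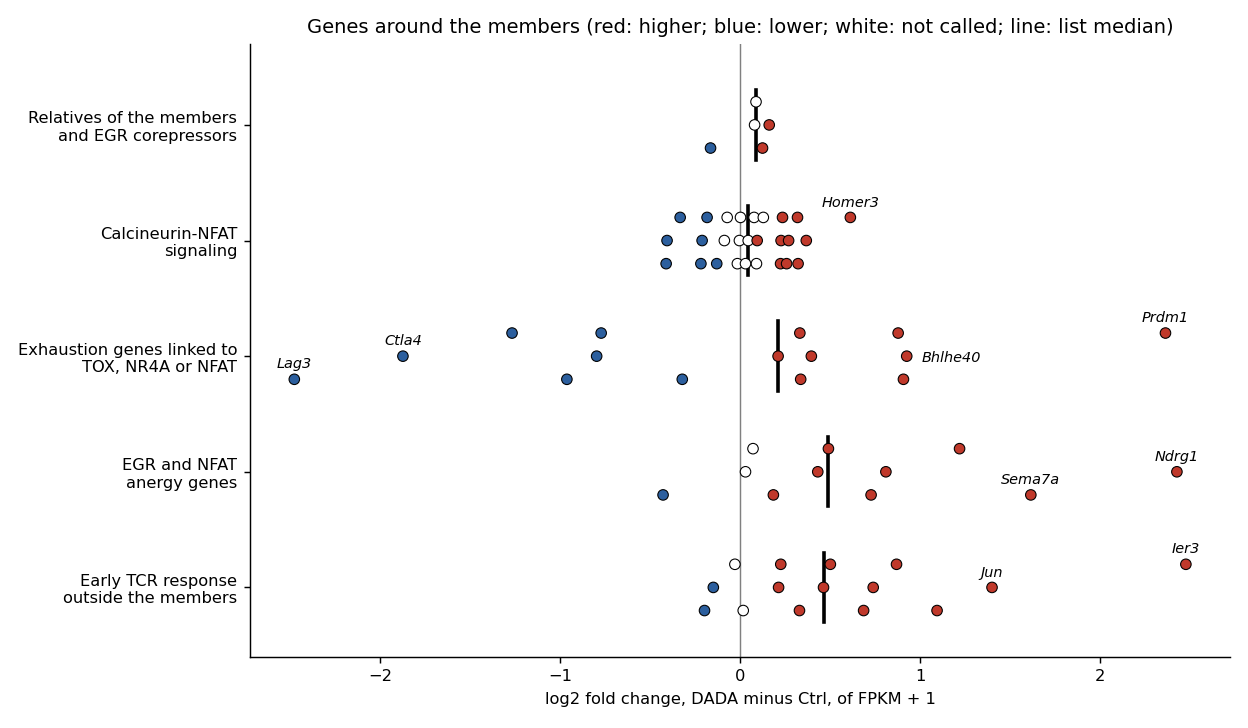
Each point is a gene of the named list that passed the filter, placed by its log2 fold change (DADA minus Ctrl, of FPKM + 1), in red where called higher, blue where called lower and white where not called, and the black line is the list median. The exhaustion list ran from -2.47 (Lag3) to 2.36 (Prdm1), and the early TCR response list from -0.20 (Ier2) to 2.47 (Ier3).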

How the data were processed

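RNA-seq of 8 libraries of mouse splenic CD8+ T cells was analysed, 4 Ctrl and 4 DADA, grouped by their titles. The deposited values are FPKM, 1 per gene and library, made by the authors from paired-end reads. The submitters' processing notes name CASAVA 1.8.2, FastQC 0.11.9, HISAT2 2.0.5, StringTie 1.3.3, Picard 1.41 and SAMtools 0.1.18, and the builds GRCm39 and GRCh38, with no role or order. Whether counting used strand is not given in the sources used here. No coordinates on the authors' build are given, and promoter windows are from RefSeq on GRCm38.p6.

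FPKM tables hold no counts. Depth was estimated from 4431 genes with 1 transcript in GENCODE M21. Only 36.5% to 44.4% of low values lay within 0.1 of a whole fragment, where this tolerance alone gives 20%, so no count test was run.

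log2(FPKM + 1) was fitted with limma 3.58.1 in R 4.3.3 (eBayes with trend, 1 term for DADA). For within-family differences, a two-sided exact permutation test was run in scipy 1.17.1. Figures used matplotlib 3.10.9. The members and gene lists were chosen with earlier results of these data known. Genes were named by rule: all 10 factors and, in each list, the 2 called genes with the largest change in each direction. Some genes that this rule or a list would name are not reported here. Alternatives were a pseudocount of 0.1, no filter, rescaling to the same total, median-ratio scaling, the replicate number as a block and each library left out in turn.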

Additional observations from a re-analysis of the deposited data

Results flagged for a closer look

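None of the 9 factors that passed the filter had a library far from its group. In 4 of 54 groups of 4 libraries, all in genes of the pathway lists, 1 library stood off from the remaining 3. The measure was the distance to its nearest neighbour divided by the full spread of the 4 values, set against the 95% critical value of Dixon's test. About 1 group in 20 is marked by chance alone, or 2.7 of these 54, and genes are not independent. *Stim2* was at 19.8 FPKM in Ctrl replicate 1 against 21.6 to 21.8 FPKM in the other Ctrl libraries (ratio 0.874). *Ndrg1* was at 20.6 FPKM in Ctrl replicate 4 against 22.2 to 22.4 FPKM (0.883), and at 120.2 FPKM in DADA replicate 4 against 122.2 to 122.6 FPKM (0.836). *Srf* was at 18.7 FPKM in Ctrl replicate 4 against 20.6 to 20.9 FPKM (0.882).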

How the results depend on the processing

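No named gene's log2 fold change and no within-family difference changed direction under the alternatives run, and the counts of factors called, 6 higher and 3 lower, held under each except that leaving out 1 library gave 5 to 6 higher. The calls over all genes were 7064, and 6700 to 6848 with a library left out. For relatives and EGR corepressors, the count called higher was 2, and 4 with median-ratio scaling, 1 without the filter, 3 after rescaling to the same total, 3 with the replicate block and 1 to 3 with a library left out (1 without Ctrl replicate 2 or 3 or DADA replicate 1, 2 or 4, and 3 without DADA replicate 3), while the count called lower was 1, and 2 without the filter, which tests more genes. For the early TCR response, the count called lower was 2, and 1 with median-ratio scaling, 1 after rescaling to the same total and 1 to 2 with a library left out. The cause was not tested. The replicate numbers gave no sign of pairing, since deviations of same-numbered libraries correlated between -0.12 and 0.0953, and with the number as a block 6995 genes were called and no factor lost its call. With 3 libraries in a group, the exact test cannot go below 0.0571, so differences within families were then judged by size. The median log2 fold change of all genes changed sign with scaling, from -0.02 to 0.02 with median-ratio scaling and 0.01 after rescaling. The depth of these libraries limits what can be said of *Tox2*, at 0 in 4 of them.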

Other observations

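Some genes of the lists lay below the filter on low values, and those with groups apart are given here, chosen after their values were seen. *Egr4*, the remaining EGR gene, was at 0.507, 0.848, 0.606 and 0.307 FPKM in Ctrl replicates 1 to 4 and at 0.168, 0.140, 0.206 and 0.140 FPKM in DADA replicates 1 to 4. It lay lower in all DADA libraries, against the direction of *Egr2* and *Egr3* (fit without the filter, limma, log2 fold change -0.42, adjusted p = 0.00562). *Rnf128*, the anergy ubiquitin ligase GRAIL, was at 0.0501, 0.0656, 0.0271 and 0 FPKM with Ctrl and at 0.392, 0.467, 0.288 and 0.198 FPKM with DADA (limma, log2 fold change 0.36, adjusted p = 0.00108). *Fosb*, an AP-1 subunit, was at 0.247 to 0.373 FPKM with Ctrl and 0.614 to 0.927 FPKM with DADA (limma, log2 fold change 0.40, adjusted p = 7.24e-04). All of these values lie below 1 FPKM and are uncertain, those of *Rnf128* with Ctrl, down to 0, the most. FPKM hold no counts, so the number of fragments behind each value is not known.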
